A study of Mus musculus with 2 samples.

Results

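Serpins are a family of proteins that share one fold and mostly block proteases, and their mRNAs were compared here between the linings of inflamed and control air pouches of mice. The members were the genes whose official symbol begins with Serpin and to which the array's annotation assigns at least 1 probe set that belongs to no other gene. Of the 18193 genes with such a probe set, 40 were Serpin genes, measured by 56 probe sets. A probe set is a group of short oligonucleotides that together report 1 transcript. The RefSeq gene table lists 69 mouse Serpin symbols, and those without a probe set of their own on this list, among them all 3 of clade E, were not analysed here. A further 3 probe sets shared by several genes were left out, and their signals lay below the detection floor on both arrays.

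The air pouch is a cavity raised with air under the skin of the back, and its lining membrane serves as a model of the joint lining. Female Balb/C mice of 6 to 8 weeks received, according to the series record, 2 ml of sterile air (the paper describes another air volume and day, which is not settled here) and, on day 7, either 1 ml PBS (control) or 2 mg of monosodium urate (MSU) crystals, the crystals of gout, in 1 ml PBS. The membranes were dissected 9 h later, and RNA of 3 mice was pooled in each group. Each pool was hybridized to 1 array, so there was 1 value per gene and group, the spread between mice cannot be seen, no test between the groups was possible, and every value describes these 2 pools.

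Most serpins act as suicide substrates. The target protease cuts an exposed loop of the inhibitor, the loop snaps into the body of the protein, and the protease is left trapped and distorted in a covalent complex that cells then clear. Some members have lost this activity and work as hormone carriers or chaperones. The letter after Serpin names the clade: clade A holds mainly secreted plasma proteins made by the liver, clade B holds mainly intracellular inhibitors that guard cells against their own granule proteases, and the small clades C to I hold coagulation, complement, collagen and neural members.

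The deposited values were linear signals scaled by the authors to the same trimmed mean, 150.0, on both arrays. A signal counted as above the floor when it was at least 64.6 on the control array or 74.1 on the MSU array. A gene above the floor on both arrays has a fold. A gene above it on 1 array, and brighter there than the other array's floor, has a bound ("at least"), and a gene with a fold or a bound is called measured. A change of 2-fold or more was the size used for counting. Where a gene had several probe sets the brightest represented it, and the pooled SD of log2 ratios between probe sets of 1 gene was 0.33 over 4002 genes.

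For the 4 Serpin genes that differed by 2-fold or more, and for Serpina3i, a relative of Serpina3n on the same chromosome, the 250 bases before the first listed transcript start are shown so that the promoters can be set beside the signals. They come from RefSeq for the build GRCm38.p6 and read 5′ to 3′ on the strand of the gene. Serpinb2 and Serpina3n were the genes with higher signals, at chr1:107511173-107511422 on the plus strand and chr12:104406458-104406707 on the plus strand. Serpina3i lies at chr12:104262872-104263121 on the plus strand. Serpinb6a and Serpinb6e were the genes with lower signals, at chr13:34002795-34003044 and chr13:33843409-33843658, both on the minus strand. Capitals mark matches to 7 short motifs searched on both strands: the TATA box TATAAA, the CCAAT box, the GC box GGGCGG, the AP-1 motif TGANTCA, the NF-kappaB motif GGANTTTCC, the STAT motif TTCNNNGAA and the C/EBP motif TTNNGNAAT.
Serpinb2: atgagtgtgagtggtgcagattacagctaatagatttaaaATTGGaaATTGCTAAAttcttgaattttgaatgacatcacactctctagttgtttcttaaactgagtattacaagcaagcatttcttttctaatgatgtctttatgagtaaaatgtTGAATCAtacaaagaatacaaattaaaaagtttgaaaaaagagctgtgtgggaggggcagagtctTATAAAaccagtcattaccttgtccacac
Serpina3n: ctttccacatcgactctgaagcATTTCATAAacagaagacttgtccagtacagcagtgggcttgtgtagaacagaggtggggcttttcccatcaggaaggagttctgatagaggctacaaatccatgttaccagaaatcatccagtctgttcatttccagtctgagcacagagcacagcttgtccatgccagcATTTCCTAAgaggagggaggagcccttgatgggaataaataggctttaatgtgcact
Serpina3i: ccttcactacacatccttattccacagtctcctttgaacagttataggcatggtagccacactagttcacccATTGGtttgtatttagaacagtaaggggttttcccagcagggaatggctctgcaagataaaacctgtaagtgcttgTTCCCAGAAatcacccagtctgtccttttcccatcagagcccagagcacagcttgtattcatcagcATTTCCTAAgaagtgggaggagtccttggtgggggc
Serpinb6a: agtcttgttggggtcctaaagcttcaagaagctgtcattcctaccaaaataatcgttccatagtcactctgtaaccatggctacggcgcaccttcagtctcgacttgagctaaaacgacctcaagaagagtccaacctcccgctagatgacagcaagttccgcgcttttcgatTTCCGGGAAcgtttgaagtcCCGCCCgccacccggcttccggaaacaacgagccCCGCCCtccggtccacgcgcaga
Serpinb6e: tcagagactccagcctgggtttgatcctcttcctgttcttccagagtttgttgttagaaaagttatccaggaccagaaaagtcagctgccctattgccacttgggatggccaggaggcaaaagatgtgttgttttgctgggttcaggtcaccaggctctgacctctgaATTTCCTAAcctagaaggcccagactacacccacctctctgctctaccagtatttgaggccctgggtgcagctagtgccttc

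The promoter table held 34 of the 40 Serpin genes and 10 of the 13 measured ones. Among these 10, TATAAA was found in Serpinb2 alone, 29 bases before its start, against 13% of 27025 promoters of the same length. TGANTCA was found in Serpinb2 as TGAATCA, 94 bases before the start, and in Serpinb8 as TGAGTCA, against 6.87% of all promoters. The usual AP-1 site has C or G at the middle base, as the Serpinb8 match does and the Serpinb2 match does not. TTNNGNAAT matched in 4 of the 10, Serpinb2, Serpina3n, Serpina3i and Serpinb6e, a set that includes genes with higher and with lower signals, against 10.3% of all promoters. GGANTTTCC matched in 0 of the 10 against 1.05%, TTCNNNGAA in Serpina3i and Serpinb6a against 7.18%, CCAAT in 3 against 34.5% and GGGCGG in 3 against 32.9%. Over all 34 Serpin genes, measured or not, TATAAA matched in 7, TGANTCA in 8 and TTNNGNAAT in 11. Likewise GGANTTTCC matched in 1 of the 34, TTCNNNGAA in 5, CCAAT in 12 and GGGCGG in 6. Serpina3n and Serpina3i were identical at 63.1% of 282 alignment columns, gaps included, and Serpinb6a and Serpinb6e at 48.6%. Serpinb6b gave a similar 46.3% with Serpinb6a and 48.2% with Serpinb6e. The letters ATTTCCTAA occur in Serpina3n, Serpina3i and also Serpinb6e, at 57, 36 and 82 bases before the start. Serpinb2 had 32.4% G and C in this window and Serpinb6a 54.4%. The motifs were chosen with the sequences in view, and a match describes letters only. Other spellings of the sites were not searched, so the absence of a match holds for these letters alone.

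Of the 40 Serpin genes, 13 (32.5%) were measured, against 61.3% of all genes. Among these 13, 2 (15.4%), Serpinb2 and Serpina3n, were higher by 2-fold or more in the MSU pool, where 3.7% of all measured genes were. Likewise 2 (15.4%), Serpinb6e and Serpinb6a, were lower by 2-fold or more, where 4.29% of all measured genes were. With 13 genes these shares rest on 2 genes each. The second contrast depends on the scaling: with the arrays scaled on their spike-in controls, 3 of 14 measured Serpin genes were lower by 2-fold or more, beside 15.8% of all measured genes. A further 7 had folds within 2-fold in either direction, and 2, Serpina3i and Serpina10, had bounds. The median log2 ratio over the 11 Serpin genes with a fold was 0.01, with 6 above 0 and 5 below, beside −0.05 over the 10045 genes with a fold.

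**Figure D1:**
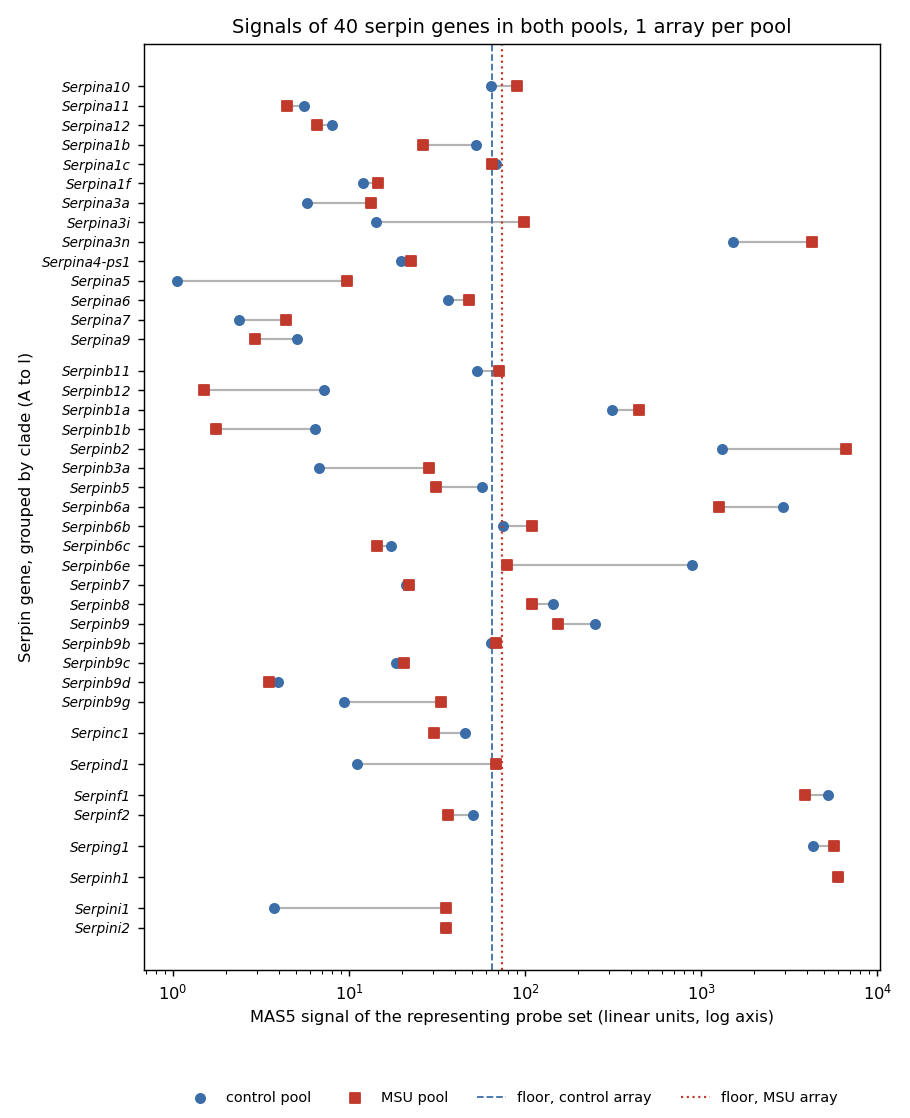
Signal of the representing probe set of each of the 40 Serpin genes (x axis, MAS5 signal in linear units on a log axis) in the control pool (blue circles) and the MSU pool (red squares), grouped by clade on the y axis, with the detection floors of 64.6 and 74.1 as dashed and dotted lines. Of the 40 genes, 26 lie left of the floor on both arrays, and Serpinb2, Serpina3n, Serpinb6a and Serpinb6e have the long bars right of it.

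Clade B held 18 genes, of which 7 were measured. Its measured members covered both ends of the family: Serpinb2 had the highest fold and Serpinb6e the lowest. The median log2 ratio of the 7 was −0.40, with 3 above 0 and 4 below. This median was 0.059 when _x_at and _s_at probe sets, that of Serpinb6e among them, were left out.

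Serpinb2 encodes plasminogen activator inhibitor 2, which blocks urokinase and is found largely inside macrophages and epithelial cells. Its signal was 1318 on the control array against 6662 on the MSU array. That is a 5.05-fold higher signal with MSU crystals (log2 ratio 2.34), and 52 of the 11155 measured genes had a larger ratio. Its target urokinase (Plau) had signals of 358 and 379, and the tissue plasminogen activator (Plat) 1999 and 1692, both within 2-fold. The urokinase receptor Plaur, which holds urokinase at the cell surface and takes part in clearing inhibitor complexes, was 4.79-fold higher, with signals of 562 and 2691. So inhibitor and receptor were both higher in the MSU pool, while the protease between them stayed within 1.06-fold.

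The other clade B member on chromosome 1 with a fold was Serpinb8, an inhibitor of the proprotein convertase furin. Its signals were 144 (control) and 109 (MSU), 1.32-fold lower. A further probe set of Serpinb8 went from 89.4 to 67.8, below the MSU floor, which gives at least 1.21-fold lower. Furin itself had signals of 336 and 404. The remaining 5 named genes of this chromosome 1 group, Serpinb3a, Serpinb5, Serpinb7, Serpinb11 and Serpinb12, were below the floor on both arrays.

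The remaining 11 clade B genes lie on chromosome 13, where 5 were measured. Of these, 0 were higher by 2-fold or more and 2 were lower by as much. Their median log2 ratio was −0.69, with 2 above 0 and 3 below. That median includes Serpinb6e, whose limits are given below. Serpinb6a, an intracellular inhibitor of cathepsin G and other proteases that many tissues make, had signals of 2916 and 1261. It was 2.31-fold lower in the MSU pool (log2 ratio −1.21). Serpinb6e, a mouse gene of the same subgroup with no well-described target, had signals of 887 and 78.5, which is 11.3-fold lower (log2 ratio −3.50). No other gene with a fold had a lower ratio, and 1 gene with a bound did.

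The Serpinb6e value rests on 1 probe set, whose name ends in _x_at, the manufacturer's mark for probes that may bind other transcripts. Its MSU signal of 78.5 lay just above the floor of 74.1, so the size of the ratio depends on a signal near the limit of detection. The share of other transcripts in this signal was not tested. Serpinb6e and Serpinb6a are separated in the order of Serpin genes by Serpinb6c alone, and Serpinb6c was below the floor on both arrays, with signals of 17.4 and 14.4. The third measured gene of the subgroup, Serpinb6b, went the other way, from 74.8 to 109, 1.45-fold higher. The 3 measured Serpinb6 genes therefore differed from one another in these pools, from 1.45-fold higher to 11.3-fold lower.

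Serpinb1a and Serpinb9 are the best known of the chromosome 13 group in leukocytes. Serpinb1a encodes the leukocyte elastase inhibitor, which neutralizes neutrophil elastase, proteinase 3 and cathepsin G. Its signals were 310 and 443, 1.43-fold higher, and a further probe set gave 88.1 and 92.3, 1.05-fold higher. The mRNAs of its 3 targets, Elane, Prtn3 and Ctsg, were below the floor in both pools, with MSU signals of 15.4, 41.7 and 2.15. The proteases themselves were not measured, so their presence in the membranes cannot be read from these signals. Serpinb9, which protects cells from granzyme B, had signals of 248 and 154, 1.61-fold lower, and its further probe set went from 95.8 to 42.4, at least 1.29-fold lower. Granzyme B (Gzmb) had signals of 69.8 and 40.6, above the floor in the control pool only and too dim for a bound. Serpinb1b, Serpinb9b, Serpinb9c, Serpinb9d and Serpinb9g were below the floor on both arrays, the nearest to it being Serpinb9b with 63.9 and 68.6.

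**Figure D2:**
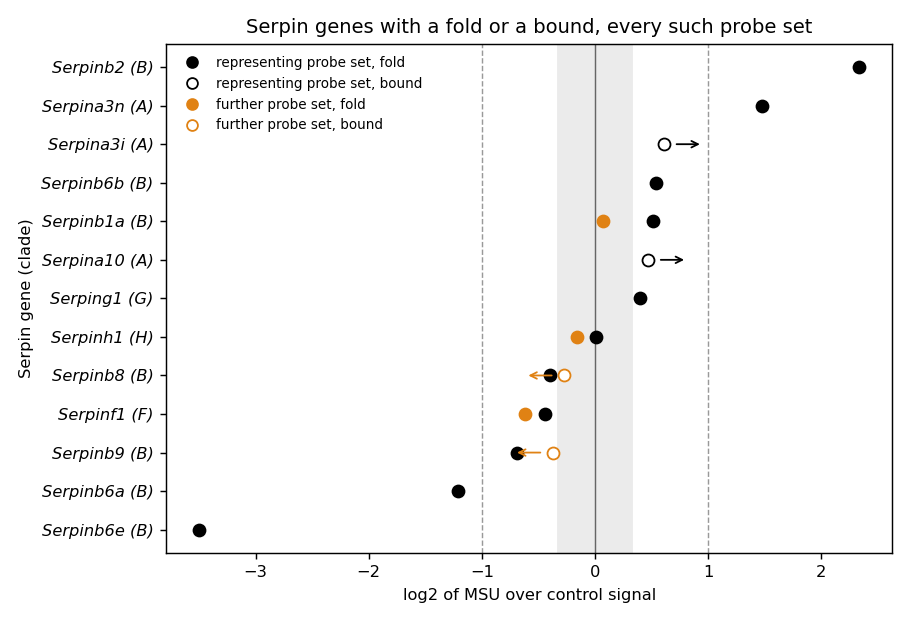
Log2 of the MSU over the control signal (x axis) for the 13 measured Serpin genes (y axis, clade in brackets), with black for the probe set that represents the gene and orange for further probe sets. Filled points are folds, open points with arrows are bounds, dashed lines mark 2-fold, and the grey band is 1 pooled SD between probe sets of a gene (0.33); Serpinb2 and Serpina3n lie right of the band and of the 2-fold line, Serpinb6a and Serpinb6e left of both.

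Where a gene had further probe sets with a fold or a bound (Serpinb1a, Serpinb8, Serpinb9, Serpinf1 and Serpinh1), they pointed the same way as the representing one in 4 of the 5, where for Serpinb8 and Serpinb9 the further reading is a bound whose direction follows from the floor. The exception was Serpinh1, whose probe sets had log2 ratios of 0.01 and −0.16. All 4 genes past 2-fold were represented by 1 single-gene probe set each, so none of them has a second reading on these arrays.

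Clade A held 14 genes, 13 of them on chromosome 12 and Serpina7 on the X chromosome. It had 3 measured members, of which 1, Serpina3n, had a fold. The other two, Serpina3i and Serpina10, were measured only through their MSU signals, which fixes their direction, so no direction of the clade is read from them. Serpina3n is one of the mouse counterparts of human alpha-1-antichymotrypsin, an acute phase protein made by the liver, by astrocytes and by connective tissue cells. Its signals were 1517 and 4228, 2.79-fold higher in the MSU pool (log2 ratio 1.48), and 192 measured genes had a larger ratio. Serpina3i, a relative in the same cluster, went from 14.3, below the floor, to 98.6, which gives at least 1.53-fold higher. Serpina10, the protein Z-dependent inhibitor of activated coagulation factor X, went from 64.1 to 89.5, at least 1.38-fold higher, on a probe set whose name ends in _s_at, a mark for probes that match several transcripts. Factor X itself (F10) had signals of 58.6 and 316, at least 4.89-fold higher.

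The clade A genes best known as plasma proteins were dim in both pools. Serpina1c, an alpha-1-antitrypsin gene, had signals of 68.4 and 65.0, above the floor in the control pool only and too dim for a bound. The 10 genes below the floor on both arrays included Serpina1b (52.8 and 26.1), also an alpha-1-antitrypsin, Serpina5, the protein C inhibitor, and the hormone carriers Serpina6, which binds corticosteroids, and Serpina7, which binds thyroxine. The others were Serpina1f, Serpina3a, Serpina4-ps1, Serpina9, Serpina11 and Serpina12. Markers of hepatocytes, the usual source of these proteins, were measured for 2 of 10 genes, with albumin (Alb) at 32.3 and 2.24, below both floors. One of the 2, Cyp2e1, which fat also expresses, was 2.86-fold lower in the MSU pool.

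Clades F, G and H each had 1 measured member, all within 2-fold. Serping1, the C1 inhibitor that restrains complement and contact activation, had signals of 4286 and 5644, 1.32-fold higher, a direction that turned (log2 ratio −0.06) when the arrays were scaled on their spike-in controls. Its complement targets C1ra (1337 and 1622) and C1s1 (2096 and 2286) were likewise within 2-fold. Serpinf1 encodes pigment epithelium-derived factor, a secreted protein without protease inhibition that restrains vessel growth. Its signals were 5268 and 3870, 1.36-fold lower, and its further probe set went from 2727 to 1780, 1.53-fold lower.

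Serpinh1 encodes Hsp47, the collagen chaperone of the endoplasmic reticulum. It had signals of 5980 and 6012, a log2 ratio of 0.01 whose sign turned under 4 alternatives, and the further probe set went from 5905 to 5299, 1.11-fold lower. All 15 genes of a list of collagens and collagen-modifying enzymes were measured, 1 was higher by 2-fold or more (P3h2, a prolyl hydroxylase, at least 2.02-fold), 0 were lower by as much, and the median log2 ratio was 0.15. Ppib, a prolyl isomerase that acts on procollagen, had a log2 ratio of −0.96. The 4 collagens of the list, the proteins on which Hsp47 acts, had log2 ratios from −0.21 (Col5a1) to 0.41 (Col1a1).

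The remaining members were below the floor on both arrays. They were Serpinc1 (antithrombin, 45.4 and 30.4), Serpind1 (heparin cofactor II, 11.1 and 68.3), Serpinf2 (alpha-2-antiplasmin, 50.2 and 36.3), Serpini1 (neuroserpin) and Serpini2. Over the 26 Serpin genes below both floors, the median signal was 11.5 with a highest value of 63.9 for the control mice, and 22.2 with a highest value of 71.2 after MSU crystals. Plain ratios of such signals have no reliable size: 6 of the 26 were 2 or more and 3 were at most 0.5. Serpinb5 (maspin), an epithelial serpin, had 4 probe sets, and all lay below the floors.

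Beyond the pairs above, the targets and relatives of the serpins were described by lists. Of 40 genes listed as target proteases or related factors, 22 were measured, with a median log2 ratio of −0.13 over those with a fold. Among them 1 (F10) was higher by 2-fold or more and 0 were lower by as much. This list also holds genes not known as proteases that serpins block, such as tissue factor (F3), Hgf, Cpa3, Fap and Dpp4. Of 10 cathepsins and legumain, which some serpins also inhibit, 9 were measured, all within 2-fold, with a median of −0.01. Of 15 cofactors and clearance receptors, 14 were measured, the median was 0.18, and 3 were higher by 2-fold or more. These were Plaur, the heparan sulfate proteoglycan Sdc4 (582 and 2497, 4.29-fold higher) and thrombomodulin (Thbd, 495 and 1110, 2.24-fold higher).

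Of 26 protease inhibitors outside the serpin family, 16 were measured, with a median log2 ratio of −0.15. Among them 2 were higher by 2-fold or more and 0 were lower by as much. Slpi, the secretory leukocyte protease inhibitor that blocks neutrophil elastase, had signals of 148 and 947, 6.38-fold higher. Wfdc21, a further protein with a WAP domain, had signals of 222 and 496, 2.24-fold higher. Counting only genes with a fold, 16 of 16 genes of the target list and 10 of 12 of these inhibitors were within 2-fold. Over all genes 9268 of 10045 were. Among Serpin genes 7 of 11 were, a count that rests on few genes. Bounds and genes below the floor cannot show this.

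**Figure D3:**
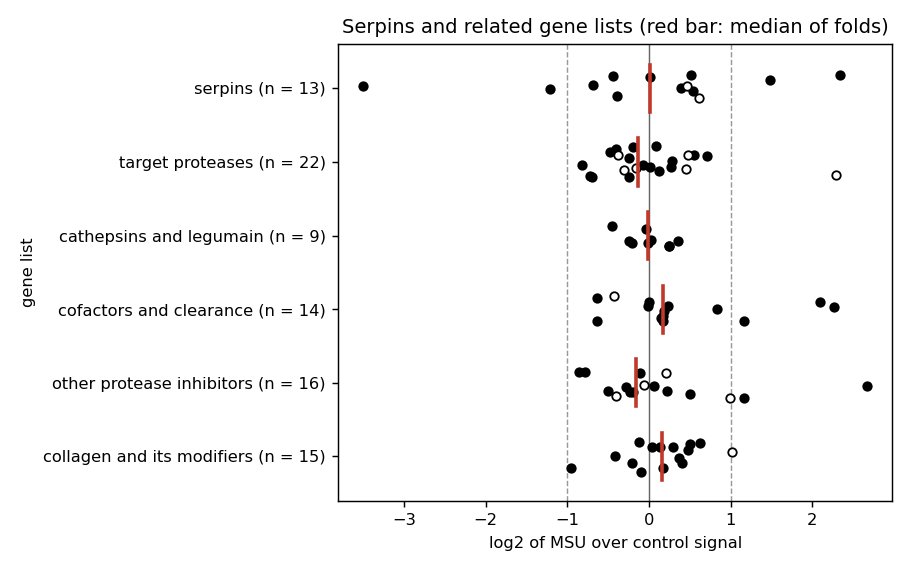
Log2 of the MSU over the control signal (x axis) of every measured gene in the serpin family and in 5 related gene lists (y axis, number of measured genes in brackets), with filled points for folds, open points for bounds, red bars for the median of the folds and dashed lines at 2-fold. The medians lie between −0.15 and 0.18, and Serpinb6e, at −3.50, is the lowest point shown.

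Markers of several cell types also differed between the pools, and in pooled tissue fewer cells of a type and less RNA per cell cannot be told apart. Of 12 neutrophil markers 11 were measured and 10 were at least 2-fold higher, the exception, Ltf, being 1.45-fold lower, and their summed signal went from 3084 to 25592. Platelet markers had 2 of 3 measured genes at least 2-fold higher (Pf4 and Ppbp), with a sum of 2389 and 5422. Most of this sum was Pf4 (2179 and 4565), and with spike-in scaling Ppbp alone was past 2-fold higher. Macrophage markers had 1 gene higher (Cd14) and 2 lower (Trem2 and Folr2) of 12 measured, with a sum of 31883 and 38441, and fibroblast markers had 0 of 10 past 2-fold, with a sum of 59065 and 66794. All 12 macrophage and all 10 fibroblast markers, the main cell types of the membrane, were thus measured. The part of these cell types in the higher signals of Serpinb2, Serpina3n and Slpi was not tested.

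Markers of fat, skeletal muscle and glandular epithelium were lower in the MSU pool. Adipocyte markers were at least 2-fold lower in 6 of 8 measured genes (sum 17883 and 7535), skeletal muscle markers in 6 of 10 (42926 and 23729) and glandular epithelium markers in 4 of 7 (1898 and 622). Keratinocyte markers were measured for 3 of 14 genes (542 and 488), endothelial markers for 7 of 8 (1284 and 1139), mast cell markers for 6 of 8 (887 and 573) and cytotoxic lymphocyte markers for 2 of 8 (446 and 378), with 0 past 2-fold in each of these lists. With spike-in scaling, the mast cell markers Cpa3 and Cma1 and the keratinocyte marker Krt5 were at least 2-fold lower, beside 15.8% of all measured genes. Serpinb6e and Serpinb6a had lower signals along with the fat, muscle and glandular epithelium lists. The part of fat, muscle or epithelium in the lower signals of these genes was not tested. The paper found that control membranes varied in mRNAs marking fat and muscle, and proposes small remnants left by the dissection. It pooled RNA for that reason. It also raises dilution by RNA of immigrating cells as a possible partial source of lower signals. Neither was tested here.

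The 4 Serpin genes past 2-fold kept their direction and size class under every other way of processing the arrays that measured them. The log2 ratio of Serpinb2 ranged from 1.88 to 2.34, that of Serpina3n from 1.02 to 1.48, and that of Serpinb6a from −1.67 to −1.16. Serpinb6e ranged from −3.95 to −2.64 and was left out when _x_at probe sets were. The 18 spike-in probe sets, RNAs that the standard protocol adds in equal amounts before hybridization, were all brighter on the MSU array, with a median ratio of 1.37. Scaling on them lowered every log2 ratio by 0.46, which put Serpinh1 at −0.45 and Serpinb9 past 2-fold lower, while the median of all genes became −0.51. On that scale Thbd, Wfdc21 and P3h2 were no longer past 2-fold higher, whereas Plaur, Sdc4, Slpi and F10 were. In the other direction, 8 genes of the partner lists became at least 2-fold lower, where 0 had been. On that scale 15.8% of all measured genes were lower by as much. The 8 were Cma1, Cpa3 and Fap (3 of 22 measured on the target list), Sdc2 and Gpc1 (2 of 14 cofactors), Spint2 and Wfdc18 (2 of 16 inhibitors) and Ppib (1 of 15).

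**Figure D4:**
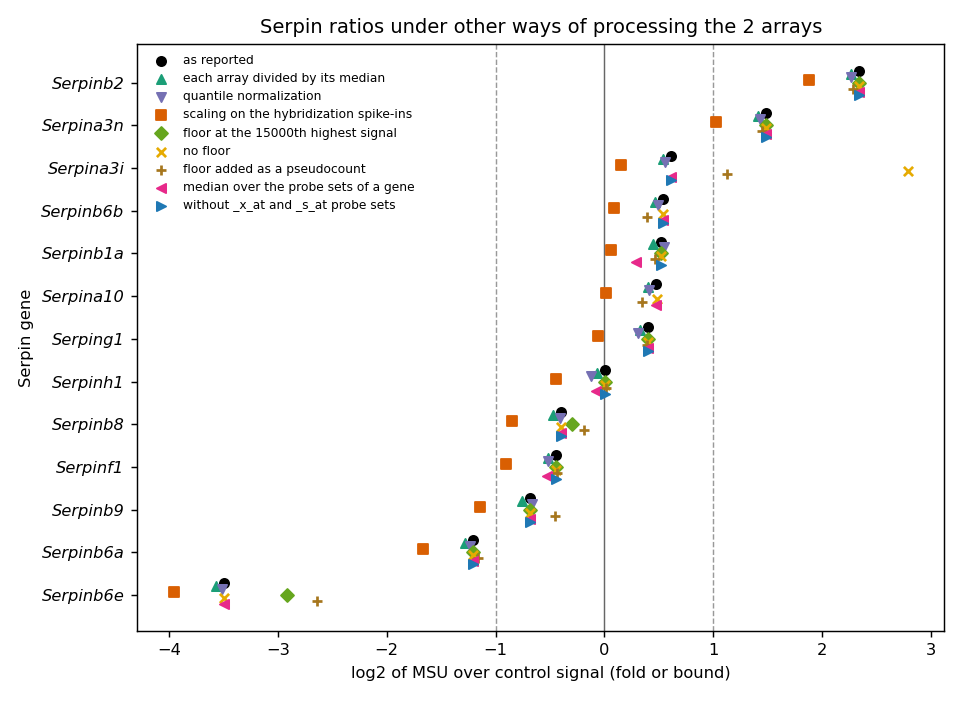
Log2 of the MSU over the control signal (x axis, fold or bound) of the 13 measured Serpin genes (y axis) as reported (black circles) and under 8 other ways of processing the arrays (other symbols), with dashed lines at 2-fold. Scaling on the spike-ins (orange squares) shifts all points left by 0.46, and Serpinb2, Serpina3n, Serpinb6a and Serpinb6e stay outside the dashed lines wherever they were measured.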

How the data were processed

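RNA pooled from 3 mice per group was hybridized by the authors to 1 Affymetrix Mo430_2 array per group. The deposited intensities are on a linear scale, 1 per probe set and array. The authors obtained them with Affymetrix's own program, for which the submitters' notes name MAS5, and scaled each array to a common mean that leaves out the extreme 2% at either end. Its version was not given in the sources used here. MAS5 gives 1 signal per probe set from matched and mismatched probes, and low signals carry large relative errors.

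The table holds 45101 probe sets, 64 of them array controls. The platform's annotation, with symbols checked against the RefSeq table of GRCm38.p6, gives 1 gene for 34958 of them and several for 932, and does not list 9211. The floor of each array was the signal at the rank given by the study's number of detected probe sets, and a given probe set may have had another Affymetrix detection call, which was not used here. Folds and bounds are MSU over control. Bounds set the higher signal against the other array's floor.

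The serpin members and the gene lists (target proteases and related factors, cathepsins, cofactors and clearance, other inhibitors, collagen partners and 12 lists of cell markers) were chosen with earlier results of these data known. Every measured Serpin gene is named, and from each partner list the members at least 2-fold higher or lower. Plau, Plat, Furin, C1ra, C1s1, Elane, Prtn3, Ctsg, Gzmb, Alb, Ltf, Col1a1, Col5a1, Ppib and the genes lower after scaling on the spike-ins were named beside a serpin or a list after their values were seen. With 1 array per group no p-value was computed, and the number of arrays limits the precision. Alternatives were other scalings (array median, quantile normalization, spike-ins), other floors, a pseudocount, the median over probe sets, leaving out _x_at and _s_at probe sets, a 3-fold size and bounds included in medians. The gene step was tested on simulated arrays. Python 3.11.15, numpy 2.4.6, pandas 2.3.3 and matplotlib 3.10.9 were used.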

Additional observations from a re-analysis of the deposited data

How the results depend on the processing

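Scaling by the array median, quantile normalization, the floor at the 15000th highest signal and taking a median across each gene's probe sets left 2 Serpin genes higher by 2-fold or more and 2 lower by as much, and moved the medians of the family (0.01) and of clade B (−0.40) by less than the 0.33 between probe sets of a gene, though the family median turned negative under 3 of these 4 (−0.066, −0.12 and −0.074), but not under the other floor. Scaling on the spike-ins moved the family median to −0.45 and that of clade B to −0.85, by the 0.46 by which it shifts every gene. Without a floor, 9 Serpin genes were at least 2-fold higher and 5 lower, since all 40 then count, beside 8.92% and 9.48% of all genes, and the clade B median was −0.050 over 18 genes. With the floor as a pseudocount that median was 0.16 and 3 Serpin genes were higher by 2-fold or more, Serpina3i being added at a log2 ratio of 1.13. Without _x_at and _s_at probe sets 1 gene was at least 2-fold lower, because Serpinb6e has no other probe set, and the clade B median was 0.059. At a size of 3-fold 1 gene was higher (Serpinb2) and 1 lower (Serpinb6e). With bounds included the family median was 0.40. The sign of the clade B median thus depends on Serpinb6e and on how dim genes are treated. A clade A median was not computed for the values as reported, since 1 of its genes had a fold. It was 0.35 without a floor and 0.22 with the pseudocount, over 14 genes. Scaling on the spike-ins for the partner and marker lists was chosen after seeing the data. No paired analysis was possible because each group has 1 array. Signals near the floor limit Serpinb6b, Serpina10, Serpina3i and the MSU value of Serpinb6e.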
